A study of Homo sapiens with 7 samples.

Results

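Chromosomes 4 and 13 were examined in the peak lists of 7 chromatin immunoprecipitation sequencing (ChIP-seq) libraries of HT1080, a human fibrosarcoma cell line. A peak was taken when it lay on chromosome 4 or 13, at least 2 Mb from either end of the chromosome and at least 4 Mb from the centromere, in the genome build hg19. This left 179 Mb of chromosome 4, on both sides of the centromere, and 91.3 Mb of chromosome 13, whose kept sequence runs from 21.9 to 113 Mb. It held 9339 of the 148917 peaks in the lists, 647 on chromosome 4 and 8692 on chromosome 13, and the rule left out a further 1324 and 805 peaks of the same chromosomes. The 1 Mb just inside the limits held 420 peaks at the end of chromosome 13 and 167 after its centromere, against 312 and 151 peaks in the 1 Mb just outside. On chromosome 4 the counts at the 4 limits were 2 to 7 peaks inside and 0 to 9 outside.

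Cells had been transfected with small interfering RNAs that target VRK1 (siVRK1) or with a non-targeting one (siControl). The siVRK1 cells gave libraries with the antibodies anti-H2ApT120 (pT120) and anti-H2AubK119 (ubK119) and a library of input DNA. The siControl cells gave the same 3 libraries and another with anti-VRK1, so the depletion of VRK1 was not checked in these data. By its title the study concerns phosphorylation of H2A at T120 in transformed growth, and the siRNA comparison asks what becomes of both marks when VRK1 is targeted. Each condition had 1 library of this 1 line. No difference below therefore has a replicate check, each comparison is one between libraries, and no p-value was computed for any of them.

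VRK1 is a nuclear serine-threonine kinase that binds chromatin and phosphorylates histones and other nuclear proteins. The threonine T120 of histone H2A lies in its C-terminal tail, next to the lysine K119, the residue to which the Polycomb repressive complex PRC1 attaches a single ubiquitin. Ubiquitylated K119 is found in broad domains over silent developmental genes and, at a lower level, over most of the genome. Input DNA is sheared chromatin that was never precipitated, so a peak in it marks sequence that gives many reads without any antibody.

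Both chromosomes are known as poor in genes for their length. In the RefSeq annotation of GRCh38, chromosome 13 had 338 protein-coding genes and was rank 20 of the 22 autosomes by number, whereas chromosome 4 had 770 and was rank 13. Chromosomes 17, 19 and 22 together had 3071. By number alone, chromosome 13 was thus near the bottom of the autosomes and chromosome 4, one of the longest, near the middle.

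The library totals were between 20687408 reads (siControl pT120) and 40442635 reads (siControl ubK119), with 36030842 reads for siVRK1 pT120. The lowest peak height, which is the most extended reads found in any window inside the peak, was 12 reads in 3 lists and 14, 14, 15 and 18 reads in the others. Scaled to the library totals as RPM, the usual reads-per-million unit, these minimums were 0.333 RPM for siVRK1 pT120 against 0.58 RPM for siControl pT120, and 0.6 RPM for siVRK1 ubK119 against 0.371 RPM for siControl ubK119. The lists of a pair therefore reach down to different levels, and counts of peaks are given below both as deposited and at a shared minimum. All intervals are 95% and cover counting error only, since reads from PCR without molecular identifiers are not independent molecules.

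Chromosome 4 was nearly empty of peaks and chromosome 13 held many more, though not in every list more per Mb than the other autosomes. The siVRK1 pT120 library had 219 peaks on chromosome 4, or 1.22 per Mb, and 3940 peaks on chromosome 13, or 43.2 per Mb. On the other 20 autosomes, trimmed by the same rule, that library had 15.2 peaks per Mb. Its density on chromosome 4 was 0.0802 times that of the other autosomes (0.0699 to 0.0916), and on chromosome 13 it was 2.83 times (2.74 to 2.93). The value for chromosome 13 rested on low peaks: among peaks of at least 0.58 RPM, the minimum of the siControl list, it was 0.216 times. The siControl pT120 library had 18 peaks on chromosome 4 and 173 on chromosome 13, which is 0.1 and 1.9 per Mb, against 2.04 per Mb elsewhere. For chromosome 13 that is 0.93 times the other autosomes (0.794 to 1.08).

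The other lists showed the same contrast between the chromosomes. The siVRK1 ubK119 list held 124 peaks on chromosome 4 (0.692 per Mb) and 405 on chromosome 13 (4.44 per Mb), and the siControl ubK119 list 113 (0.631 per Mb) and 1284 (14.1 per Mb). For siVRK1 ubK119, chromosome 13 was about as dense as the other autosomes, at 1.02 times (0.92 to 1.13). Among siControl ubK119 peaks of at least 0.6 RPM, the minimum of the siVRK1 list, it was 0.425 times as dense, against 1.4 times for the whole list. The VRK1 list held 44 peaks on chromosome 4 (0.246 per Mb) and 793 on chromosome 13 (8.69 per Mb). In every library, input DNA included, chromosome 13 had more peaks per Mb than chromosome 4, by 6.41-fold in siVRK1 ubK119 and by 18.9-fold to 35.4-fold in the other 6 libraries.

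Input DNA shared this pattern. The siVRK1 input had 65 peaks on chromosome 4 and 1032 on chromosome 13 (0.363 and 11.3 per Mb), and the siControl input had 64 and 1065 (0.357 and 11.7 per Mb). Against the other autosomes, input peaks were 0.0484 times as dense in siVRK1 cells and 0.0568 times as dense in siControl cells on chromosome 4, and 1.51 and 1.85 times as dense on chromosome 13. Chromosome 4 was the lowest of the 22 autosomes in 6 libraries, the exception being siVRK1 pT120, where it was rank 20 from the top. Chromosome 13 was rank 3 from the top in siVRK1 pT120, behind chromosomes 3 and 18, and between ranks 3 and 10 in the other libraries. The number of DNA copies of each chromosome in these cells was not measured, and its part in the densities was not tested.

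**Figure D1:**
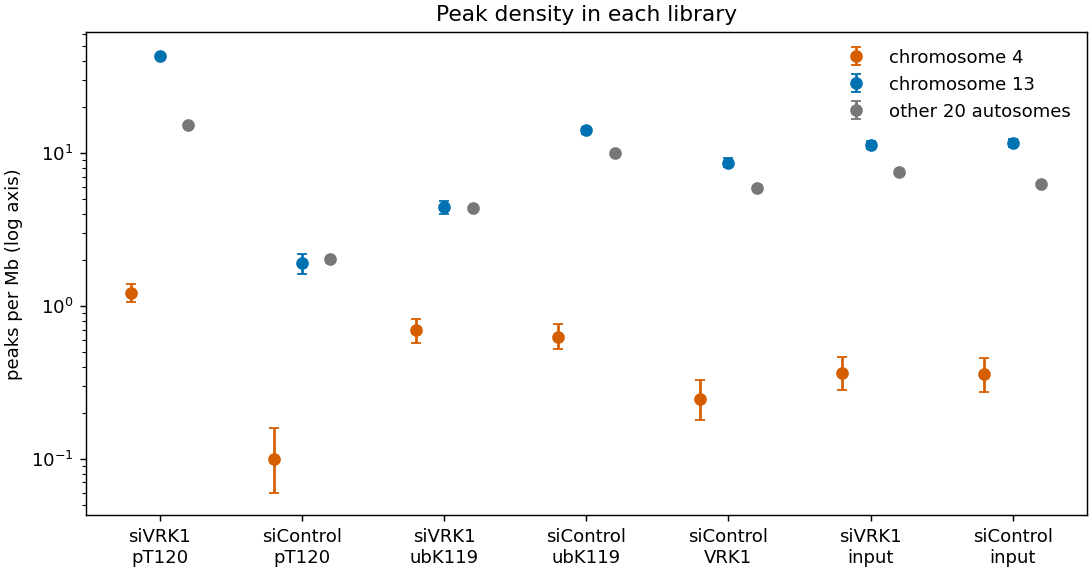
Peaks per Mb of kept sequence (log axis) in each of the 7 libraries, for chromosome 4, chromosome 13 and the other autosomes; bars show exact Poisson 95% intervals. Chromosome 4 lies lowest in every library, with 1.22 peaks per Mb in siVRK1 pT120 and 0.1 in siControl pT120, while chromosome 13 reaches 43.2 per Mb in siVRK1 pT120.

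The order of the chromosomes did not follow gene number. Chromosomes 17, 19 and 22, which are dense in genes, had 5.4 siVRK1 pT120 peaks and 7.54 siVRK1 input peaks per Mb, above chromosome 4 and below chromosome 13. For siVRK1 ubK119 they had 6.8 peaks per Mb, above both chromosome 13 (4.44) and chromosome 4 (0.692).

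Between the siRNAs, the pT120 lists differed more on chromosome 13 than on the other autosomes together. The siVRK1 list had 22.8 times as many pT120 peaks as the siControl list there (19.6 to 26.7), 12.2 times as many on chromosome 4 (7.52 to 20.9) and 7.48 times as many on the other autosomes (7.25 to 7.71). The ubK119 list of siVRK1 cells held 0.315 times as many peaks as that of siControl cells on chromosome 13 (0.281 to 0.353), but 1.1 times as many on chromosome 4 (0.844 to 1.43). On the other autosomes it held 0.434 times as many. For input DNA the ratios were near 1, at 0.969 on chromosome 13 and 1.02 on chromosome 4, against 1.19 on the other autosomes.

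The pT120 directions on both chromosomes, and that of ubK119 on chromosome 13, turned round when both lists of a pair were held to the higher of their minimum heights. At 0.58 RPM or more, 3 siVRK1 pT120 peaks and 18 siControl pT120 peaks were left on chromosome 4, and 5 and 173 on chromosome 13, a ratio of 0.0289 (0.00927 to 0.0688). At 0.6 RPM or more, siVRK1 ubK119 had 124 peaks on chromosome 4 and 405 on chromosome 13, and siControl ubK119 had 7 and 9, ratios of 17.7 and 45. Apart from ubK119 on chromosome 4, which of the siRNAs had more peaks of a mark thus depended on the lowest height admitted. The other autosomes turned round too, with ratios of 0.124 for pT120 and 18.8 for ubK119 at the same minimums. Input DNA, which holds no mark, also moved when held to its shared minimum of 0.446 RPM. Its ratio was then 0.5 on chromosome 4, 0.486 (0.437 to 0.541) on chromosome 13 and 0.671 on the other autosomes.

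Most siVRK1 pT120 peaks on both chromosomes were as low as the list allowed. On chromosome 4, 153 of 219 peaks (69.9%, Clopper-Pearson interval 63.3 to 75.9) stood at the minimum of 12 reads, on chromosome 13 2268 of 3940 (57.6%, 56 to 59.1), and on the other autosomes 53.3%. Peaks were short: the median length was between 200 and 241 bp on each chromosome in every library. In the siVRK1 pT120 regions of chromosome 13 that overlapped no input peak, 3917 in number, the median was 12 reads in the library itself and 2 reads in siControl pT120. The same regions had medians of 2 and 5 reads in siVRK1 and siControl ubK119, and of 3 reads in VRK1 and in each input. A region of this kind therefore rested on about 12 reads of 1 library.

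Along chromosome 13 the siVRK1 pT120 peaks were spread more evenly than those of the other lists. Over its 17 full windows of 5 Mb, siVRK1 pT120 had 191 to 272 peaks per window with a median of 214, and the variance was 2.36 times the mean. The siControl pT120 list had 1 to 21 peaks per window, siVRK1 ubK119 0 to 74, siControl ubK119 5 to 269, VRK1 7 to 93, siVRK1 input 10 to 121 and siControl input 10 to 115. In these 6 lists the variance was 4.92 to 78.2 times the mean. The window with most peaks in all lists together was 25 to 30 Mb, with 820, and the one with fewest was 65 to 70 Mb, with 244.

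A stretch from 55 to 95 Mb, chosen after the windows were seen, was sparse in all lists except siVRK1 pT120. It held 0.675 siControl pT120 peaks per Mb against 2.85 on the rest of chromosome 13, and 2.9 VRK1 peaks per Mb against 13.2. For ubK119 it held 0.325 peaks per Mb in siVRK1 cells, against 7.65 on the rest, and 3.4 in siControl cells, against 22.4. Input DNA was sparse there too, with 3.6 peaks per Mb against 17.3 on the rest in siVRK1 cells and 4.95 against 16.9 in siControl cells. The siVRK1 pT120 list had 45.1 peaks per Mb in the stretch against 41.6 outside it, a ratio of 1.08 (1.02 to 1.15), whereas the ratio was 0.0425 to 0.293 in the other 6 lists.

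Across the 17 windows, counts of siControl pT120 and VRK1 peaks moved together with those of input DNA. Pearson's r with the siControl input was 0.854 for siControl pT120 and 0.891 for VRK1, and with the siVRK1 input it was 0.953 and 0.958. The ubK119 lists of the siRNAs had an r of 0.961 with each other and of 0.378 to 0.633 with the inputs. By rank (Spearman) the ubK119 lists also moved with the inputs, at 0.788 to 0.882. The same measure was 0.894 to 0.956 for siControl pT120 and VRK1. For siVRK1 pT120, r with the other 6 lists was between -0.309 and 0.0185. The windows share the base composition and the mappability of 1 chromosome, so these values only describe where the peaks lay.

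**Figure D2:**
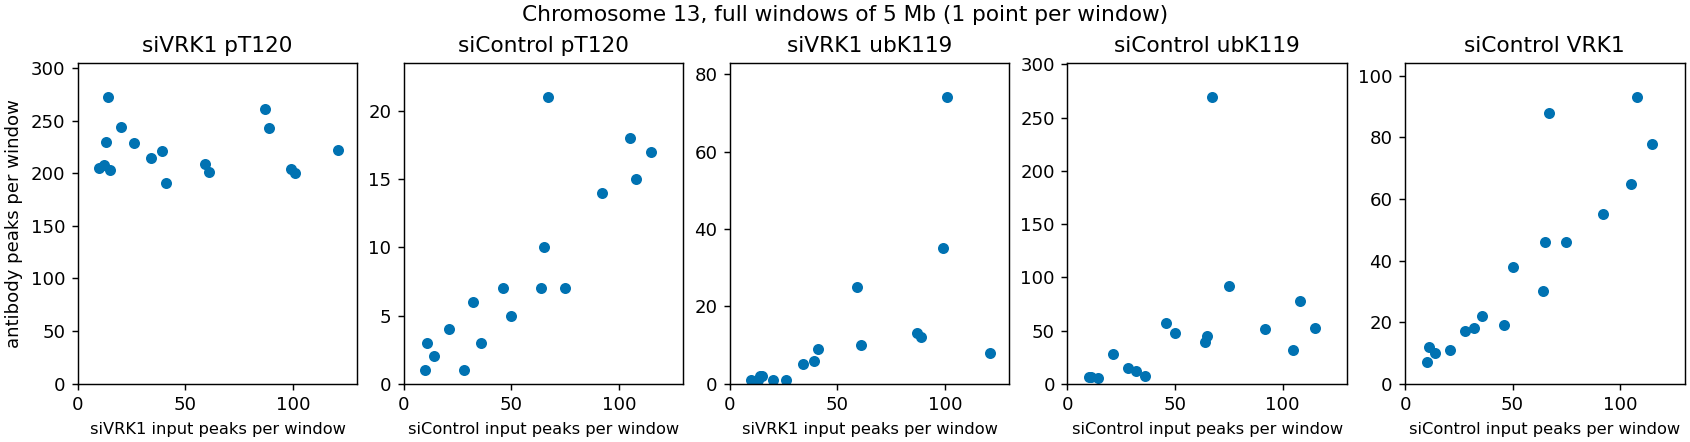
Peaks of each antibody library per full 5 Mb window of chromosome 13 (vertical axis, scaled for each library) against peaks of the input of the same siRNA in that window (horizontal axis), with 1 point for each of the 17 windows. The siVRK1 pT120 counts stay between 191 and 272 at every input count, while siControl pT120 (1 to 21) and VRK1 (7 to 93) are high in the windows that are high in the siControl input.

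In the last 1.17 Mb of the kept sequence of chromosome 13, ubK119 peaks stood close together. This piece, also chosen after its values were seen, held 144 of the 405 siVRK1 ubK119 peaks (35.6%, 30.9 to 40.4) and 266 of the 1284 siControl ubK119 peaks (20.7%, 18.5 to 23), or 123 and 227 per Mb. It held 40 VRK1 peaks, 16 siVRK1 and 7 siControl pT120 peaks, and 35 siVRK1 and 14 siControl input peaks. In the 144 regions of the siVRK1 list there were 2.83 ubK119 RPM per kb in siVRK1 cells against 1.11 in siControl cells, a ratio of 2.54, with an input ratio of 1.34 (1.24 to 1.45). In the 266 regions of the siControl list the ubK119 level was 1.44 in siVRK1 cells against 1.73 in siControl cells, a ratio of 0.829. Each list thus favoured the library it was called in. In RPM, pT120 was lower in siVRK1 cells in both, at 0.311 times (0.28 to 0.346) and 0.676 times (0.627 to 0.73) the siControl level. At regions of input DNA from 95 Mb to the kept end, a longer stretch, the pT120 ratio was also below 1. It was 0.54 (0.514 to 0.568), between the values of the ubK119 lists.

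Outside input peaks, the longest ubK119 peaks of both chromosomes lay in this end piece. The longest in siVRK1 cells, chr13:112829254-112830307 (1053 bp), held 93 ubK119 reads in siVRK1 cells against 42 in siControl cells, 2.99 times as high in RPM (2.05 to 4.41). It held 10 pT120 reads in siVRK1 cells against 19 in siControl cells (0.302 times, 0.126 to 0.683), 33 VRK1 reads, and 32 siVRK1 against 21 siControl input reads. The neighbouring peak chr13:112856941-112857860 had 84 ubK119 reads in siVRK1 cells against 34 in siControl cells, 3.33 times as high in RPM. In both, siVRK1 ubK119 had more reads than any other library, input DNA included. The longest siControl ubK119 peak outside input peaks, chr13:112124820-112125858 (1038 bp), was called under both siRNAs and had 53 ubK119 reads in siVRK1 cells against 67 in siControl cells, a ratio of 1.07 (0.73 to 1.55) in RPM.

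On chromosome 4 the ubK119 peaks were gathered on the short arm. Between 2 and 10 Mb lay 106 of the 124 siVRK1 ubK119 peaks and 73 of the 113 siControl ubK119 peaks, 13.2 and 9.12 per Mb, whereas the rest of chromosome 4 had 0.105 and 0.234 per Mb. The stretch was 126 times as dense as the rest for siVRK1 ubK119 (76 to 221) and 39 times for siControl ubK119 (26.2 to 58.9). It was also denser for VRK1, with 21 of the 44 peaks and a ratio of 19.5, and for the siVRK1 input, with 19 of 65 peaks and a ratio of 8.84. With 4 of 64 peaks the siControl input had a ratio of 1.43. The pT120 lists had 4 peaks in siVRK1 cells and 1 in siControl cells there, and the siVRK1 pT120 density was 0.398 times that of the rest.

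**Figure D3:**
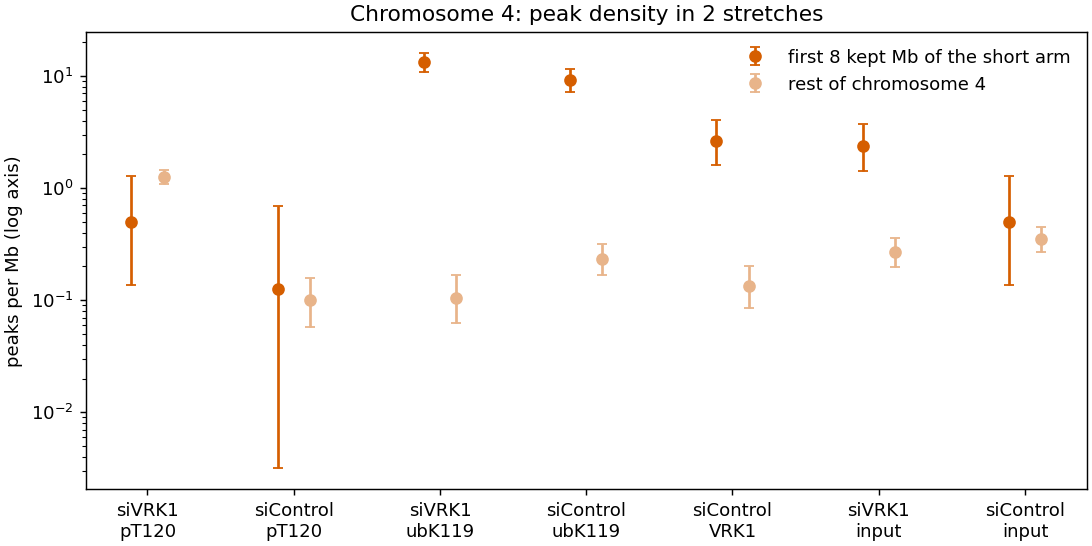
Peaks per Mb (log axis) of chromosome 4 between 2 and 10 Mb and on the rest of the chromosome, in the 7 libraries, with exact Poisson 95% intervals. For ubK119 the short-arm stretch holds 13.2 peaks per Mb in siVRK1 and 9.12 in siControl cells, against 0.105 and 0.234 on the rest, while siVRK1 pT120 is lower in the stretch.

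Most of these peaks stood within 2 Mb. From 7 to 9 Mb there were 76 siVRK1 ubK119 peaks (61.3% of those on chromosome 4, 52.1 to 69.9) and 50 siControl ubK119 peaks (44.2%, 34.9 to 53.9), with 10 VRK1 peaks, 8 siVRK1 and 2 siControl input peaks, and 1 pT120 peak under each siRNA. A smaller group from 3.5 to 4 Mb had 14 ubK119 peaks under each siRNA, 5 VRK1 peaks and 7 siVRK1 against 1 siControl input peaks. In the 76 regions of the siVRK1 list at 7 to 9 Mb, ubK119 was at 2.8 RPM per kb in siVRK1 cells against 0.764 in siControl cells, 3.66 times (3.34 to 4.02). In the same regions input DNA was also higher in siVRK1 cells, by 1.81 times (1.54 to 2.13), and pT120 was lower, at 0.344 times (0.281 to 0.419). In the 50 regions of the siControl list the ubK119 ratio was 0.77 (0.69 to 0.86), the pT120 ratio 0.614 and the input ratio 1.47 (1.19 to 1.83). The higher reads of the siVRK1 input run through both sets of regions, and their part in the ubK119 values was not tested. At regions of input DNA between 2 and 10 Mb the pT120 ratio was 0.574 (0.413 to 0.798), also below 1.

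Neighbouring peaks in the 7 to 9 Mb group differed. At chr4:7499742-7500254, with a height of 29 reads one of the highest siVRK1 ubK119 peaks of chromosome 4 outside input peaks, there were 46 ubK119 reads in siVRK1 cells against 12 in siControl cells, 5.17 times as high in RPM (2.7 to 10.7), with 5 siVRK1 and 4 siControl input reads. Less than 4 kb away, chr4:7495607-7496100 was called in siControl cells alone, yet it had 22 ubK119 reads in siVRK1 cells against 37 in siControl cells, and its ratio of 0.802 had an interval of 0.451 to 1.4. Being called under 1 siRNA therefore did not always mean a different number of reads. At chr4:7713127-7713600, also 29 reads high, the ubK119 ratio was 3.96 (2.21 to 7.49), but the siVRK1 input also had 15 reads against 2 in the siControl input.

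A run of pT120 peaks was found on chromosome 13 between 63.62 and 63.65 Mb. It held 23 siVRK1 pT120 peaks in 0.03 Mb, against 1 siControl pT120 peak, 0 and 2 ubK119 peaks in siVRK1 and siControl cells, 1 VRK1 peak, and 1 and 3 peaks in the siVRK1 and siControl inputs. This run was chosen after its values were seen. The 3 longest siVRK1 pT120 peaks of both chromosomes outside input peaks lay in it, at 1504, 739 and 733 bp. Over the 23 regions there were 670 siVRK1 pT120 reads against 157 siControl pT120 reads, or 1.64 against 0.667 RPM per kb. The ratio of 2.45 (2.06 to 2.93) follows from the list that chose the regions, and the other values are a description. There ubK119 was at 0.355 RPM per kb in siVRK1 cells against 0.778 in siControl cells, 0.456 times (0.368 to 0.562), and input DNA at 0.59 against 0.687, 0.859 times (0.708 to 1.04). Over all siVRK1 pT120 regions of chromosome 13 with at most 100 input reads the same ratios were 0.576 for ubK119 and 0.854 for input DNA.

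The longest peak of the run, chr13:63634557-63636061, carried 84 siVRK1 pT120 reads against 9 siControl pT120 reads. It also had 4 ubK119 reads in siVRK1 cells against 38 in siControl cells, 6 VRK1 reads, and 27 siVRK1 and 16 siControl input reads. At chr13:63627393-63627871 the numbers were 33 siVRK1 and 4 siControl pT120 reads, 6 and 15 ubK119 reads, 5 VRK1 reads, and 4 and 12 input reads. Both regions were high in siVRK1 pT120, as follows from the list that chose them. In RPM the ubK119 ratio was 0.142 (0.0368 to 0.394) in the first region. In the second it was 0.54, with an interval of 0.172 to 1.47 that holds 1. The highest siVRK1 pT120 peak of chromosome 13 outside input peaks, chr13:63629294-63629800, was in the same run, with 38 reads in siVRK1 and 15 in siControl cells, a ratio of 1.45 (0.782 to 2.85).

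Few regions were found by more than 1 library. When overlapping peaks of the 7 lists were joined, chromosome 4 had 581 regions, of which 556 (95.7%, 93.7 to 97.2) came from 1 library, and chromosome 13 had 8225, of which 7859 (95.6%, 95.1 to 96) did. The siVRK1 pT120 list alone accounted for 212 regions of chromosome 4 (36.5%) and 3881 of chromosome 13 (47.2%). Peaks of the other autosomes were not joined, so whether such shares are particular to these chromosomes cannot be told. All 7 libraries shared 2 regions on each chromosome. All 5 antibody libraries shared 5 regions on chromosome 4 and 4 on chromosome 13, and 1 of these on each chromosome was called in neither input.

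The share of peaks that overlapped an input peak, by at least 1 bp, was lower on both chromosomes than on the other autosomes together. Chromosome 18 raised the pooled share, and beside the median autosome chromosome 4 was not low. For siVRK1 pT120 the share in a peak of the own input was 2.74% on chromosome 4, 0.228% on chromosome 13 and 6.24% on the other autosomes, and for siControl pT120 it was 16.7%, 5.2% and 35.2%. For ubK119 it was 8.87%, 8.89% and 19.9% in siVRK1 cells and 3.54%, 2.34% and 10.6% in siControl cells. VRK1 peaks lay in a siControl input peak in 9.09%, 7.44% and 19% of cases. Chromosome 18 carried much of the overlap on the other autosomes: without it their VRK1 share was 9.51% and their siVRK1 pT120 share 1.89%, below that of chromosome 4. The median over the autosomes was 1.45% for siVRK1 pT120, 11.9% for siControl pT120, 2.72% for siControl ubK119 and 7.32% for VRK1. Chromosome 4 was above it in each of these lists, and level with the median of 8.88% for siVRK1 ubK119. Chromosome 13 was below the median for both pT120 lists and siControl ubK119, and close to it for siVRK1 ubK119 and VRK1.

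Peaks of the same mark under the other siRNA seldom lay at the same place. Of the siVRK1 pT120 peaks, 2.74% on chromosome 4 and 0.127% on chromosome 13 overlapped a siControl pT120 peak, against 3.67% on the other autosomes, or 1.29% without chromosome 18. As a share of the shorter siControl list, this was 7 of 18 peaks on chromosome 4 (38.9%) and 5 of 173 on chromosome 13 (2.89%). The medians over the 22 autosomes were 1.2% for the siVRK1 list and 9.9% for the siControl list. From the top, chromosome 4 was ranks 7 and 3 and chromosome 13 ranks 22 and 21. Of the siVRK1 ubK119 peaks 8.06% on chromosome 4 and 17% on chromosome 13 overlapped a siControl ubK119 peak, beside a median of 13.1% over the 22 autosomes. Of the siControl ubK119 peaks 8.85% and 5.3% overlapped a siVRK1 one, beside a median of 6.28%. The inputs, which hold no mark, overlapped by 15.4% and 5.43% of the siVRK1 input peaks, beside a median of 7.92%. On chromosome 13 the siVRK1 pT120 list had 3940 peaks against 173, which limits how high its share can be. How much of the low share comes from list length was not tested. The other pT120 share rests on 5 peaks, so neither can be set against the inputs. The siVRK1 ubK119 share of 17% was above the 5.43% of the siVRK1 input, and the siControl ubK119 share of 5.3% was near it. The ubK119 lists, too, differed in length.

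**Figure D4:**
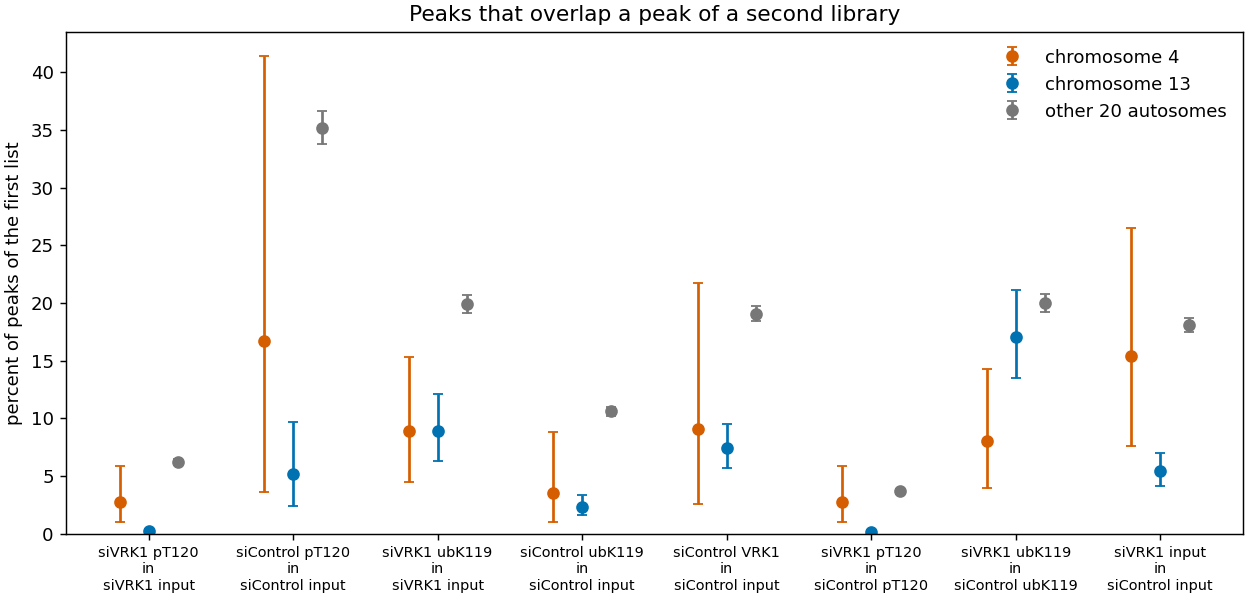
Share of the peaks of one list that overlap a peak of a second by at least 1 bp, in percent, for chromosome 4, chromosome 13 and the other 20 autosomes, with Clopper-Pearson 95% intervals: 5 antibody lists in the input of the same siRNA, then each siVRK1 list in the siControl list of the same kind. For siVRK1 pT120 in siControl pT120 the shares are 2.74%, 0.127% and 3.67%, and the intervals for chromosome 4 are wide because its lists are short.

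Between antibodies in siControl cells the shares were below the median autosome on chromosome 13 and above it on chromosome 4. The medians were 4.55% for VRK1 peaks in pT120, 7.97% for VRK1 peaks in ubK119 and 15.4% for pT120 peaks in VRK1. Of the VRK1 peaks, 9 of 44 on chromosome 4 (20.5%) and 20 of 793 on chromosome 13 (2.52%) overlapped a pT120 peak, against 11.7% on the other autosomes, or 5.4% without chromosome 18. A ubK119 peak was found at 22.7% of the VRK1 peaks on chromosome 4 and at 4.16% on chromosome 13. The pT120 list was the shorter one, and 9 of its 18 peaks on chromosome 4 and 11.6% of those on chromosome 13 overlapped a VRK1 peak. Much of the overlap between antibodies on chromosome 4 lay in input peaks: outside them 2 of 34 VRK1 peaks (5.88%) overlapped a pT120 peak, and 8.82% a ubK119 peak.

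Reads were then compared at the regions of the VRK1 list, from a library that is not a member of the pT120, ubK119 and input pairs. It comes from siControl cells, and whether its regions favour the siControl libraries was not tested. Regions with more than 100 reads in either input were left out, which left 42 of 44 regions on chromosome 4 and 792 of 793 on chromosome 13. On chromosome 4, pT120 had 282 reads in siVRK1 cells against 306 in siControl cells, or 7.83 against 14.8 RPM, and the ratio was 0.529 (0.448 to 0.624). On chromosome 13 there were 3364 siVRK1 against 3963 siControl pT120 reads, or 93.4 against 192 RPM, and the ratio was 0.487 (0.465 to 0.51). Thus pT120 in RPM was lower in siVRK1 cells on both chromosomes, and the other autosomes had 0.533, or 0.477 without chromosome 18. The interval of chromosome 4 held both of these values and that of chromosome 13 the second.

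At the same regions ubK119 was higher in siVRK1 cells. On chromosome 4 it had 516 reads in siVRK1 against 456 in siControl cells, or 17.2 against 11.3 RPM, a ratio of 1.53 (1.34 to 1.74), and on chromosome 13 it had 226 against 137 RPM, a ratio of 1.65 (1.59 to 1.71). The other autosomes had 1.56, or 1.7 without chromosome 18. The inputs themselves were not equal, with 12.8 RPM in siVRK1 against 10.0 in siControl cells on chromosome 4, a ratio of 1.28 (1.1 to 1.5), and 199.6 against 184 RPM on chromosome 13, a ratio of 1.09 (1.05 to 1.13). Counted from the lowest of the 22 autosomes, chromosomes 4 and 13 were ranks 18 and 15 for the pT120 ratio, 5 and 9 for ubK119, and 20 and 3 for input DNA. Neither chromosome was an extreme for either mark.

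**Figure D5:**
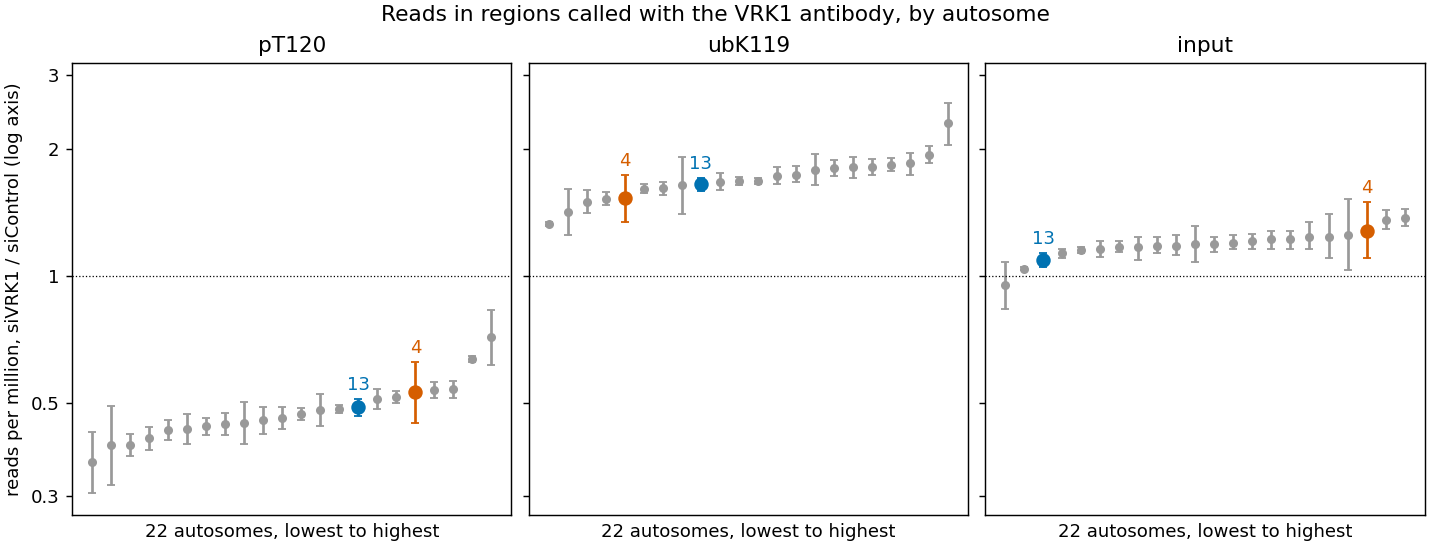
Ratio of RPM (log axis), siVRK1 over siControl, in the VRK1 regions of each of the 22 autosomes, ordered by ratio, for pT120, ubK119 and input DNA, with exact conditional binomial 95% intervals. Chromosomes 4 and 13 have pT120 ratios of 0.529 and 0.487, inside the range of the other autosomes, ubK119 ratios of 1.53 and 1.65, and input ratios of 1.28 and 1.09.

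Ratios in the same direction were found at regions of input DNA. In regions called in either input and holding at most 100 reads in each, 117 on chromosome 4 and 2040 on chromosome 13, the pT120 ratio was 0.575 and 0.554, the ubK119 ratio 1.57 and 1.5 and the input ratio 0.989 and 0.976. When the libraries were scaled to these regions, the pT120 ratio at VRK1 regions became 0.92 on chromosome 4 and 0.879 on chromosome 13, and the ubK119 ratio 0.975 and 1.1. Most of the difference in RPM at VRK1 regions was thus also present at regions of input DNA. The limit on input reads decided the direction on chromosome 4: with the remaining 2 regions kept, the pT120 ratio was 1.06 and the input ratio 0.854.

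The direction also depended on which list chose the regions. At siControl pT120 regions the pT120 ratio was 0.412 on chromosome 4 and 0.188 on chromosome 13, and at siVRK1 pT120 regions it was 4.58 and 3.71. At siVRK1 ubK119 regions, in which pT120 played no part, it was 0.432 and 0.387, and at siControl ubK119 regions 0.703 and 0.866. At the siVRK1 pT120 regions the ubK119 ratio was 0.705 and 0.576, below 1, although it was above 1 at VRK1 regions and at regions of input DNA. Of the lists named here, only siVRK1 pT120 gave a pT120 ratio above 1 over the kept sequence of either chromosome. Within chromosome 13, siControl ubK119 regions from 55 to 95 Mb had a pT120 ratio of 1.15 (1.01 to 1.31). Peaks at the minimum height made up 57.6% of the siVRK1 pT120 list on chromosome 13, beside 64.7% for siControl pT120. On chromosome 4 they made up 69.9% beside 44.4%.

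At VRK1 regions, the stretches that differed in peak number differed little in these ratios. The 116 VRK1 regions of chromosome 13 between 55 and 95 Mb had a pT120 ratio of 0.51 and a ubK119 ratio of 1.55, and the 676 outside it had 0.484 and 1.66. On chromosome 4 the 21 VRK1 regions between 2 and 10 Mb had 0.432 and 1.64, with an input ratio of 1.37, and the 21 on the rest had 0.569 and 1.44, with an input ratio of 1.23.

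Per region the depth was low, so only VRK1 regions with at least 20 reads in both libraries together were compared one by one. On chromosome 13, 14 of 17 such regions (82.4%) had pT120 2-fold or more lower in siVRK1 cells and 0 had it 2-fold or more higher, and on chromosome 4 these were 3 of 6 and 0. Over the VRK1 regions of all autosomes, ends and centromeres included, 32.1% were lower and 2.35% higher. On the other autosomes trimmed like chromosomes 4 and 13, 33.7% were lower and 2.18% higher, and without chromosome 18 the share lower was 42.6%. With a limit of 10 reads the chromosome 13 share was 154 of 298 (51.7%), so the 17 regions say little about the chromosome. At that limit the share was 47% on the other autosomes and 54.5% on them without chromosome 18, so chromosome 13 lay between.

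For ubK119, 72 of 166 regions of chromosome 13 (43.4%) and 6 of 13 of chromosome 4 (46.2%) were 2-fold or more higher in siVRK1 cells, beside 33.4% over all autosomes untrimmed and 41.2% on the other autosomes trimmed and without chromosome 18. In the other direction there were 2 (1.2%) and 0, beside 2.41% over all autosomes untrimmed. Input DNA was 2-fold or more higher in 16 of 134 regions of chromosome 13 (11.9%) and in 3 of 10 of chromosome 4, beside 9.61% over all autosomes untrimmed, and lower in 5 (3.73%) and 0, beside 2.9%. The shares for ubK119 and for input DNA on chromosome 13 were close to those of the other autosomes once chromosome 18 was set aside.

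Set against the input of the same siRNA, the VRK1 library stood highest at the regions called in it, as its own list favours, at 2.32 times on chromosome 4 (2.02 to 2.68) and 2.13 times on chromosome 13 (2.06 to 2.2). The pT120 library was at 0.61 times its input in siVRK1 and 1.48 times in siControl cells on chromosome 4, and at 0.468 and 1.04 times on chromosome 13. The ubK119 library was at 1.34 and 1.13 times on chromosome 4 and at 1.13 and 0.748 times on chromosome 13. The siControl pT120 and the ubK119 levels at VRK1 regions were therefore between 0.748 and 1.48 times those of input DNA, and siVRK1 pT120 was below it. With the 2 regions of most input reads kept, VRK1 itself was at 0.942 times its input on chromosome 4, siVRK1 pT120 at 1.18, siControl pT120 at 0.948 and siVRK1 ubK119 at 0.968.

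Levels of the marks per kb at VRK1 regions depended on the input peaks among them. With regions of at most 100 input reads, pT120 had 0.742 RPM per kb in siVRK1 and 1.4 in siControl cells on chromosome 4, against 0.483 and 0.992 on chromosome 13, and ubK119 had 1.63 and 1.07 against 1.17 and 0.712. The siVRK1 input was also higher on chromosome 4, at 1.22 against 1.03, while the siControl input was at 0.948 against 0.952. Outside input peaks, siVRK1 pT120 was lower on chromosome 4, at 0.342 RPM per kb against 0.478 on chromosome 13. There siControl pT120 was at 1.02 against 0.926, siVRK1 ubK119 at 1.15 against 1.08 and siControl ubK119 at 0.682 against 0.675. The level of VRK1 itself, 2 RPM per kb on chromosome 4 and 2.01 on chromosome 13 outside input peaks, is set largely by the minimum height of its list.

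Outside input peaks, each chromosome had 1 region that all 5 antibodies called. On chromosome 4 it was chr4:178071083-178071476, with 20 siVRK1 and 48 siControl pT120 reads, 46 and 27 ubK119 reads, 31 VRK1 reads, and 3 and 7 input reads. It was the highest peak outside input peaks on chromosome 4 in 4 lists, and level with the highest, at 26 reads, in siControl ubK119. On chromosome 13 it was chr13:105348040-105348436, with 14 siVRK1 and 23 siControl pT120 reads, 25 and 17 ubK119 reads, 34 VRK1 reads, and again 3 and 7 input reads. There pT120 was at 0.349 times (0.166 to 0.709) and ubK119 at 1.98 times (1.03 to 3.92) in RPM in siVRK1 cells. Both regions thus had less pT120 and more ubK119 in siVRK1 cells, the direction of the summed VRK1 regions, from fewer than 50 reads in any library.

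Another region that all 5 antibodies called, chr13:34238692-34239080, was also listed in the siControl input, where it had 13 reads, and not in the siVRK1 input, where it had 14. It held 58 siVRK1 and 87 siControl pT120 reads (0.383 times in RPM, 0.27 to 0.54), 130 and 114 ubK119 reads (1.54 times, 1.19 to 2), and 147 VRK1 reads. Every antibody library was far above both inputs here. The region chr13:28033520-28034266, called in all 7 libraries, had 107 siVRK1 against 199 siControl pT120 reads (0.309 times, 0.242 to 0.392), 185 against 144 ubK119 reads (1.73 times, 1.39 to 2.17), 315 VRK1 reads, and 214 against 137 input reads.

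The highest region of chromosome 4 behaved differently. At chr4:68264084-68266935 (2851 bp), called in all 7 libraries, there were 3725 siVRK1 and 1849 siControl pT120 reads, 2174 and 2869 ubK119 reads, 2585 VRK1 reads, and 2674 and 2692 input reads. The siVRK1 to siControl ratio in RPM was 1.16 (1.09 to 1.22) for pT120, 1.02 (0.966 to 1.08) for ubK119 and 0.803 (0.761 to 0.848) for input DNA. This region was as high without an antibody as with one, and it exceeded the limit on input reads. At chr4:80273433-80274886, the other region of chromosome 4 found in all 7 libraries, every library was between 5.24 and 6.67 RPM and the pT120 ratio was 0.983 (0.774 to 1.25).

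By the rule for named peaks 37 regions were listed, 10 on chromosome 4 and 27 on chromosome 13, and 26 of them were called in 1 library. The clearest pT120 peak found in siControl cells alone was chr4:99982383-99982750, with 2 reads in siVRK1 and 15 in siControl cells (0.0766 times, 0.00849 to 0.329), but it had 7 and 8 input reads and 12 VRK1 reads. On chromosome 13 the highest of this kind, chr13:39842806-39843068, had 3 siVRK1 and 17 siControl pT120 reads, 12 and 8 ubK119 reads, 14 VRK1 reads, and 9 and 5 input reads. In RPM, VRK1 was at 0.375 against 0.725 for siControl pT120 in the first region and at 0.437 against 0.822 in the second. On the other side, chr4:177065458-177065808 had 18 siVRK1 pT120 reads against 1 in siControl cells, with 1 and 10 ubK119 reads, 1 VRK1 read, and 2 and 0 input reads.

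Among ubK119 peaks on chromosome 13, chr13:31611899-31612750 had the highest siVRK1 height outside input peaks, with 79 ubK119 reads in siVRK1 against 50 in siControl cells, 2.13 times in RPM (1.48 to 3.1). It also had 8 against 18 pT120 reads, 32 VRK1 reads, and 32 against 16 input reads. Its neighbour chr13:31616886-31617453, called in siVRK1 cells alone, had 55 against 21 ubK119 reads and equal input, with 18 reads in each. In the opposite direction, chr13:79248406-79248787 had 6 ubK119 reads in siVRK1 against 31 in siControl cells (0.261 times, 0.0891 to 0.635), 19 VRK1 reads, and 9 against 2 input reads. At chr13:41501249-41501629, called by all antibody libraries except siControl pT120, ubK119 was at 25 against 27 reads and the siVRK1 input was at 0, which allows up to 3 reads or 0.0902 RPM there.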

How the data were processed

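Nuclei of HT1080 cells were fixed, sonicated and precipitated with the antibodies, and library DNA was amplified by 20 cycles of PCR and read for 36 sequencing cycles, per the labels' protocols. Groups were taken from the siRNA and antibody in the labels, with 1 library per group. Tools named in the submitters' processing notes, without their roles, are Bowtie 0.12.8, CASAVA 1.8.2 and Partek, and the build is hg19. How peaks were called, whether against the input, and how duplicates were handled is not stated in those sources. PCR and short reads can raise the reads of repeated sequence and of duplicated fragments.

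Per the file headers, each list was called in 1 library and holds positions and peak lengths in bp. The height was deposited as a signal, the largest number of extended reads in a window, and also as RPM, which gave each library total. A read count per region was deposited for all 7 libraries and is not normalized. The Mann-Whitney p-value of the authors' caller was not used for any result. The deposited percent of each region covered by another list served to check overlaps, which differed in 0 of 880590 cases. Positions are printed as deposited, and their first base may be numbered 0 or 1, which no source used here states. No annotation of hg19 was used here, so peaks carry no gene names, and gene numbers per chromosome come from RefSeq for GRCh38.

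Python 3.11.15 with NumPy 2.4.6, pandas 2.3.3, SciPy 1.17.1 and matplotlib 3.10.9 was used. Densities have exact Poisson intervals, shares Clopper-Pearson intervals, and ratios of counts exact conditional binomial intervals, which were tested on simulated data. Regions with more than 100 reads in either input were left out of summed reads. In a region 3 reads were 0.0742 to 0.145 RPM. Named peaks were, outside input peaks and per chromosome, the 2 highest of each antibody list, up to 6 shared by all 5 antibodies, the 2 highest of pT120 and ubK119 found under 1 siRNA, and over both chromosomes the 3 longest of each list. They also include the 5 Mb windows with most and fewest peaks. Shared regions that hold an input peak, and the stretches and runs described, were chosen after their values were seen. The chromosomes and the measures were chosen with earlier results of these data known.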

Additional observations from a re-analysis of the deposited data

How the results depend on the processing

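No paired analysis was possible because each condition had 1 library, and for the same reason no library was left out in turn. Over 162 values from alternative settings, for 64 results, 80 moved by less than their counting interval, 73 moved further and 9 changed side. A ratio was counted as changing side only if its main interval left out 1. Other crossings of 1 are among the 80 and the 73. An example is the siControl pT120 density ratio of chromosome 13, 0.93 in the main setting and 1.55 outside input peaks. The cause was not tested except where a setting itself removes peaks or regions.

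Without the trimming of ends and centromeres, peak density relative to the other autosomes was 0.171 (siVRK1 pT120), 0.329 (siControl pT120), 0.261 (siVRK1 ubK119), 0.186 (siControl ubK119), 0.189 (VRK1), 0.176 (siVRK1 input) and 0.201 (siControl input) on chromosome 4. On chromosome 13 it was 2.43 (siVRK1 pT120), 0.771 (siControl pT120), 1.21 (siControl ubK119), 1.26 (VRK1), 1.34 (siVRK1 input) and 1.57 (siControl input). At a shared minimum RPM in each pair, which removes the lowest peaks, the chromosome 13 ratio fell below 1 for siVRK1 pT120 (0.216) and siControl ubK119 (0.425) and was 1.34 for the siVRK1 input. The chromosome 4 ratio was then 0.066 for siVRK1 pT120 and 0.168 for siControl ubK119. Outside input peaks chromosome 13 had 3.06 (siVRK1 pT120), 1.55 (siControl pT120), 1.15 (siVRK1 ubK119), 1.56 (siControl ubK119) and 1.78 (VRK1).

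The next 3 settings were chosen after seeing the data. With chromosome 18 left out of the other autosomes, chromosome 13 had 3.03 (siVRK1 pT120), 1.33 (siControl pT120), 1.57 (siControl ubK119), 1.7 (VRK1), 1.7 (siVRK1 input) and 2.19 (siControl input). Without its own 55 to 95 Mb it had 2.73 (siVRK1 pT120), 1.4 (siControl pT120), 1.76 (siVRK1 ubK119), 2.23 (siControl ubK119), 2.22 (VRK1), 2.31 (siVRK1 input) and 2.69 (siControl input). Chromosome 4 without 2 to 10 Mb had 0.0241 (siVRK1 ubK119), 0.0233 (siControl ubK119), 0.0226 (VRK1) and 0.0358 (siVRK1 input).

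Overlaps moved where input peaks were removed. On chromosome 4 outside input peaks, 5.88% of VRK1 peaks overlapped siControl pT120 and 8.82% siControl ubK119, 9.09% of siControl pT120 peaks overlapped siControl ubK119, 0.469% of siVRK1 pT120 peaks overlapped siControl pT120 and 2.65% of siVRK1 ubK119 peaks overlapped siControl ubK119. On chromosome 13, 2.79% of VRK1 peaks overlapped siControl ubK119. With at least 0.5 of a peak covered, the chromosome 13 shares were 1.32% for siControl ubK119 in input, 4.67% for VRK1 in input, 1.26% for VRK1 in siControl pT120, 9.88% for siVRK1 ubK119 in siControl ubK119 and 3.68% for siVRK1 in siControl input. Against the input of the other siRNA, siVRK1 ubK119 had 4.03% on chromosome 4 and 6.17% on chromosome 13, and VRK1 had 22.7% on chromosome 4.

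At VRK1 regions of chromosome 4, keeping the 2 regions of most input reads turned round the siVRK1 to siControl ratio of pT120 (1.06) and input DNA (0.854) and gave 1.09 for ubK119. Over the own input it turned round siVRK1 pT120 (1.18), siControl pT120 (0.948), siVRK1 ubK119 (0.968) and VRK1 (0.942), and siControl ubK119 was 0.757. Scaling to regions called in input DNA gave 0.92 for pT120 and 0.975, below 1, for ubK119 on chromosome 4, and 0.879 and 1.1 on chromosome 13. The pT120 ratio was 0.337 outside input peaks and 0.399 without the 1 in 100 regions with most reads on chromosome 4, and 0.516 outside input peaks on chromosome 13. Over the input of the other siRNA, siVRK1 pT120, siControl pT120, siVRK1 ubK119, siControl ubK119 and VRK1 were at 0.782, 1.15, 1.72, 0.878 and 1.81 on chromosome 4 and at 0.508, 0.96, 1.23, 0.689 and 1.96 on chromosome 13. With a limit of 10 reads, 51.7% (pT120), 4.75% (ubK119) and 8.97% (input DNA) of chromosome 13 regions were 2-fold or more lower in siVRK1 cells. On the other autosomes these shares were 47%, 3.5% and 5.3%. Depth limits the single regions most, since most hold fewer than 20 reads of a pair.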
